A study of Homo sapiens with 9 samples.

Results

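The HOX genes of HEK293 Flp-In T-REx cells were examined, a human embryonic kidney line with a site for inserting inducible constructs. Rows were taken by their symbol: HOXA, HOXB, HOXC or HOXD followed by a number, antisense transcripts named after a HOX gene or cluster, and HOTAIR, HOTAIRM1, HOTTIP and HAGLR. The rule found 56 of the 60664 genes listed, made up of 39 HOX genes and 17 antisense or other noncoding transcripts. HOXA held 17 of them on chromosome 7, HOXB 14 on chromosome 17, HOXC 14 on chromosome 12 and HOXD 11 on chromosome 2. Total RNA was sequenced from 3 libraries of TTC33 knock-down cells, 3 of CCDC97 knock-down cells and 3 of control cells. The knock-down cells expressed a microRNA against the named gene once tetracycline was added, and control cells expressed no microRNA. All 3 groups, controls included, received tetracycline at 100 ng/ml for 3 days. The labels do not say whether replicates of a group came from separate cultures or clones, so the p-values reflect how much these libraries vary, and that variation could be technical.

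HOX genes encode homeodomain transcription factors that give cells along the body axis their positional identity. They lie in 4 clusters, and genes with the same number in different clusters are paralogs. Low numbers lie at one end of each cluster and act towards the head, high numbers at the other end and act towards the tail, limbs and urogenital tract. Polycomb complexes keep the clusters silent where they are not needed and MLL complexes maintain their activity. A cell line can keep part of this code from its tissue of origin. Kidney precursors use genes among those numbered 9 to 13, above all those of group 11.

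Promoters are shown for 5 members of groups 9 to 13 on which results below turn and for which RefSeq sequence was at hand. Of the 56 members, 30 matched the RefSeq promoter table by symbol. Each line gives the 250 bases before the gene start (build GRCh38.p14), 5′ to 3′ on the strand of the gene, with matches to 3 short motifs on either strand in capitals. The TATA box was searched as TATAAA. The box named CCAAT was searched by those letters. For the GC box the letters were GGGCGG. HOXA9, HOXA10, HOXA11 and HOXA13 lie side by side on the minus strand and had lower counts in TTC33 than in CCDC97 knock-down cells, and HOXD13, a paralog of HOXA13, was higher in TTC33 knock-down cells than in controls. For HOXA10 the start farther upstream of the 2 in the table is shown.
HOXA9, chr7:27165538-27165787, minus strand: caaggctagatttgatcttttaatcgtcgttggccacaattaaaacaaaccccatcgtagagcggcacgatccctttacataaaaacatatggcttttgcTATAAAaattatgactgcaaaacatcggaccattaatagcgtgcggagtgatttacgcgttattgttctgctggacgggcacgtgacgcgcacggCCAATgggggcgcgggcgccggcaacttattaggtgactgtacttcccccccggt
HOXA10, chr7:27179862-27180111, minus strand: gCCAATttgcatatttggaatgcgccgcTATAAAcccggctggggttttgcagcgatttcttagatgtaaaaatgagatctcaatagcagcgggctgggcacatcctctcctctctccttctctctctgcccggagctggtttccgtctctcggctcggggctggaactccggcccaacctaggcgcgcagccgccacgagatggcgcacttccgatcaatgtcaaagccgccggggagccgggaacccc
HOXA11, chr7:27185233-27185482, minus strand: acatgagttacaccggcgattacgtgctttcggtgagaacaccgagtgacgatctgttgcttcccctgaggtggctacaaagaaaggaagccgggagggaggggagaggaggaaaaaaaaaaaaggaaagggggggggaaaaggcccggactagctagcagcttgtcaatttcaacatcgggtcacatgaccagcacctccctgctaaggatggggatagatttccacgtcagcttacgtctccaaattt
HOXA13, chr7:27200092-27200341, minus strand: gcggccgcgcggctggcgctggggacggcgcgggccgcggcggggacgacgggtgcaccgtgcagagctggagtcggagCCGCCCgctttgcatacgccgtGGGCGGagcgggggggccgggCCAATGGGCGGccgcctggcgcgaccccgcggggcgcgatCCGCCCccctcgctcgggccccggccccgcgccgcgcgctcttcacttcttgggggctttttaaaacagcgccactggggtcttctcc
HOXD13, chr2:176092471-176092720, plus strand: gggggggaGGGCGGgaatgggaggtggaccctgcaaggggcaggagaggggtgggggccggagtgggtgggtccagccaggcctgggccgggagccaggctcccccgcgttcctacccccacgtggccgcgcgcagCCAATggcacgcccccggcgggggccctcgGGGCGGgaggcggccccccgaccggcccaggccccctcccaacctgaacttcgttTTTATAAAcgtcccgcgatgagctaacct

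The windows differed in base composition and in these motifs. HOXA13 had 78% G and C with 40 CG dinucleotides and HOXD13 74% with 21, against 48.8% with 20 at HOXA9, 58.8% with 19 at HOXA10 and 51.6% with 11 at HOXA11. A CCAAT box stood in 4 of the 5 windows, the exception being HOXA11, which held none of the 3 motifs. The TATA box of HOXD13 began 27 bases before the start, and 4 of its bases also matched the motif on the other strand. Those of HOXA9 and HOXA10 began 150 and 222 bases before theirs. GC boxes stood in the windows of HOXA13 (4 matches) and HOXD13 (2 matches). Among all 35116 windows of the same length, 10.7% held TATAAA, 32% CCAAT and 42.6% GGGCGG on either strand. At least 1 window held TATAAA in 5, CCAAT in 23 and GGGCGG in 12 of the 30 members, some of which have several windows. These matches describe the letters only.

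Gene counts were 21764203 to 36110891 per library. The targeted genes went with the labels: TTC33 had 9.67, 6.41 and 6.16 CPM (counts scaled to a common library size) in TTC33 knock-down libraries, against 37.7, 37.1 and 38.6 CPM in control libraries. CCDC97 had 15.9, 15.3 and 15.7 CPM in CCDC97 knock-down libraries, against 60.6, 60.1 and 59.5 CPM in control libraries. In TTC33 knock-down cells CCDC97 was itself 0.43 ± 0.12 higher than in controls on the log2 scale (edgeR quasi-likelihood test, adjusted p = 0.0371). The kidney-lineage genes PAX2 and LHX1 were read at 3.91 to 6.25 CPM as group means, and the marker genes of leukocytes summed to at most 0.693 CPM and those of endothelium to at most 1.42 CPM in any library. The neuroblastoma list summed to at most 6.12 CPM, with TH at 0 in every library. The fibroblast list summed to 10.96 to 14.3 CPM in TTC33 knock-down, 12.8 to 16.0 CPM in CCDC97 knock-down and 11.2 to 12.2 CPM in control libraries, and 3 of its 6 genes were tested. COL3A1 was called higher in CCDC97 knock-down cells (log2 1.11, adjusted p = 0.00333) and LUM in TTC33 knock-down cells (log2 2.62, adjusted p = 0.011), while COL1A1 passed in neither (log2 0.07 in TTC33 and -0.23 in CCDC97 knock-down cells). The HEK293 lineage list summed to 1155 to 1310 CPM in TTC33 knock-down, 1014 to 1110 CPM in CCDC97 knock-down and 1070 to 1104 CPM in control libraries. Of its 9 genes, 2 were called higher and 1 lower in TTC33 knock-down than in control cells. In CCDC97 knock-down cells edgeR called 0, while 2 had an unadjusted p under 0.05 and DESeq2 called 1. Between the knock-downs 3 were called higher and 1 lower in TTC33 knock-down cells. Of all genes tested, 11.9% were called in TTC33 and 4.56% in CCDC97 knock-down cells against control, and 21.5% between the knock-downs. The part of these marker lists in the results was not tested.

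All 4 clusters were expressed, and together they took 1280 to 1472 CPM in TTC33 knock-down, 1418 to 1550 CPM in CCDC97 knock-down and 1256 to 1303 CPM in control libraries. Of the 56 members, 52 passed the filter on low counts, 37 HOX genes and 15 antisense or noncoding transcripts. HOXB1, HOXC12, HOXB-AS2 and HOXB-AS4 did not and had at most 4 counts in any library. Of those that passed, 51 reached the filter's count in all libraries of all 3 groups, so passing did not depend on a change between groups. Levels are compared between genes as CPM per kilobase of exon. The highest level in each cluster was that of HOXB9 (44.3 ± 0.9 CPM per kilobase in controls, SD, n = 3), HOXA13 (31.9 ± 1.1), HOXD10 (31.0 ± 1.8) and HOXC4 (26.6 ± 0.2).

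**Figure D1:**
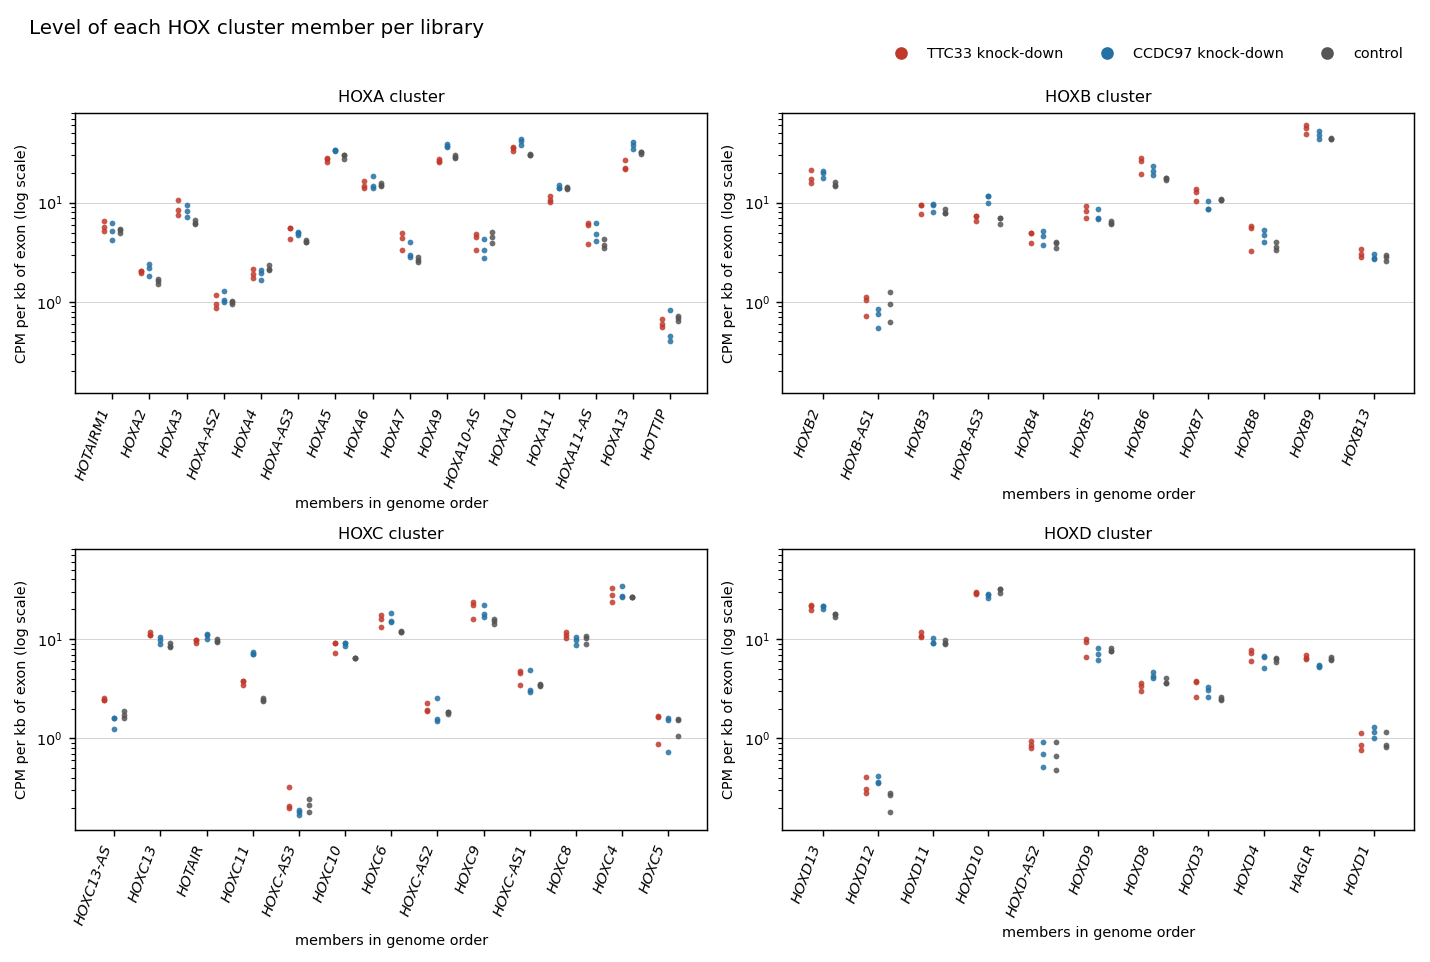
Level of 51 members tested in each of the 9 libraries, in CPM per kilobase of exon on a log scale, with members in genome order and each point a library of TTC33 knock-down, CCDC97 knock-down or control cells. The members span more than 2 orders of magnitude, with HOXB9 at the top (44.3 in controls) and HOXC-AS3 at the bottom (0.214), and HOXC11 is the member whose CCDC97 knock-down points stand clearest of the others.

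Within each cluster a few genes stood well above the rest. In controls HOXA13, HOXA10, HOXA5 and HOXA9 stood at 31.9, 30.6, 29.3 and 29.1 CPM per kilobase, and neighbours in that order overlapped between control libraries. HOXA6 (15.2) and HOXA11 (14.2) followed, while HOXA2 (1.63) and HOXA4 (2.21) were the lowest HOX genes of the cluster. In HOXB, HOXB9 was followed by HOXB6 (17.5), HOXB2 (15.4) and HOXB7 (10.8), and HOXB13, known for its role in the prostate, stood at 2.81. In HOXC, HOXC4 was followed by HOXC9 (15.01), HOXC6 (11.9) and HOXC8 (10.1), and HOTAIR (9.67) overlapped with HOXC8. In HOXD, HOXD10 was followed by HOXD13 (17.5) and HOXD11 (9.28), with HOXD12 at 0.244 between these strongly read neighbours. Over the 4 clusters, 13 of 48 neighbours in the order of levels overlapped between control libraries. HOTAIR was the highest of the 15 noncoding members, ahead of HOXB-AS3 (6.72), HAGLR (6.37) and HOTAIRM1 (5.25). Exon bases shared with another listed gene on the same strand were left out of the length, and how reads on them were counted is not given. Of 962 genes with every exon base shared in this way, 0.728% had 10 or more counts, beside 35.3% of genes that share none. Bases shared on the same strand, 57 to 1081 of them, were found in 21 of the 52 members, whose levels and places in the order are less certain. They link HOXB3 with HOXB6 (433), HOXC4 with HOXC6 (484) and HOXD10 with HOXD11 (452). Counted over all exon bases, HOXC5 moved most, to 0.556 in place of 1.39 CPM per kilobase, and HOTAIRM1 next, to 2.98 in place of 5.25, which is below HOXA10-AS (4.54) and HOXA-AS3 (4.07). HOXA10 and HOXA9 moved to 27.6 and 24.5, so that HOXA5 lay above both. Orders in the other clusters changed as well. HOXB6 moved to 14.59, below HOXB2 (15.38), HOXC6 to 9.99, below HOXC8 (10.05), and HOXD11 to 7.29, below HOXD9 (7.76).

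TTC33 knock-down went with higher counts of 10 members, 5 of them in HOXC, and lower counts of HOXA11 and HOXA13. Of the 52 members tested, 12 passed the test (edgeR's quasi-likelihood test with Benjamini-Hochberg adjustment over 18299 genes, threshold 0.05), 10 higher and 2 lower. Over all genes tested 11.9% were called, 6.5% higher and 5.44% lower. The called members were 4 of 17 in HOXA (23.5%), 2 of 11 in HOXB (18.2%), 5 of 13 in HOXC (38.5%) and 1 of 11 in HOXD (9.09%). The share in HOXD rests on 1 call and was near that of all genes. In bulk RNA, fewer cells that express a gene and less of its RNA per cell cannot be told apart.

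The clearest member was HOXC11, which acts in hindlimb and kidney development. It had 11.3, 12.3 and 12.5 CPM in TTC33 knock-down libraries, against 7.71, 7.95 and 8.31 CPM in control libraries. All 3 knock-down values lay above all 3 control values, by a fold of 1.51 (log2 0.59 ± 0.09 SE, adjusted p = 0.00196). HOXC13, which drives hair and nail keratin genes, had 26.96, 26.7 and 28.5 CPM in TTC33 knock-down libraries, against 20.4, 22.2 and 20.7 CPM in control libraries. HOXC13-AS, its overlapping antisense partner, had 3.44, 3.57 and 3.44 CPM in TTC33 knock-down libraries, against 2.27, 2.67 and 2.44 CPM in control libraries. Neither gene's groups overlapped, and the log2 fold changes were 0.38 ± 0.09 for HOXC13 (adjusted p = 0.0211) and 0.50 ± 0.14 for HOXC13-AS (adjusted p = 0.0377).

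HOXC10, a gene of the lumbar spinal cord and hindlimb, had 15.8, 20.0 and 19.9 CPM in TTC33 knock-down libraries, against 14.0, 14.0 and 13.9 CPM in control libraries. HOXC6, expressed at thoracic levels, had 39.9, 48.0 and 52.8 CPM in TTC33 knock-down libraries, against 34.9, 36.1 and 35.2 CPM in control libraries. In both genes the first knock-down library was the lowest of its group and still above the controls. The log2 fold changes were 0.41 ± 0.10 for HOXC10 (adjusted p = 0.0267) and 0.41 ± 0.11 for HOXC6 (adjusted p = 0.0406).

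Of the other members that rose, HOXA7, HOXB6 and HOXA3 also had their lowest knock-down value in replicate 1. HOXA7 had 8.0, 10.7 and 11.9 CPM in TTC33 knock-down libraries, against 6.36, 6.89 and 6.02 CPM in control libraries, the largest rise of the set at log2 0.66 ± 0.16 (adjusted p = 0.0279). HOXB6 had 42.2, 57.2 and 61.3 CPM in TTC33 knock-down libraries, against 38.7, 38.8 and 36.5 CPM in control libraries (log2 0.49 ± 0.13, adjusted p = 0.0321). HOXA3, which patterns the pharyngeal pouches that form thymus and parathyroid, had 29.5, 32.8 and 41.6 CPM in TTC33 knock-down libraries, against 26.3, 24.3 and 23.9 CPM in control libraries (log2 0.48 ± 0.14, adjusted p = 0.0429). In each of the 3 genes the groups did not overlap, and the first TTC33 knock-down library lay nearest to the controls. HOXB9, the member with the highest level per length, rose by a log2 fold change of 0.33 ± 0.09 (adjusted p = 0.0425). HOXD13, which patterns digits and the genital tubercle, had 48.3, 44.1 and 49.4 CPM in TTC33 knock-down libraries, against 39.9, 37.7 and 39.8 CPM in control libraries, a log2 fold change of 0.27 ± 0.07 (adjusted p = 0.0396).

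The members that fell lie next to each other at the high-numbered end of HOXA. HOXA13, which acts in the limb and urogenital tract, had 136, 110.4 and 114 CPM in TTC33 knock-down libraries, against 165, 166 and 155 CPM in control libraries. HOXA11, needed with its paralogs for kidney formation in mouse, had 23.4, 24.5 and 26.97 CPM in TTC33 knock-down libraries, against 33.5, 32.7 and 31.8 CPM in control libraries. Every knock-down value of both genes lay below every control value. HOXA13 fell by 0.43 ± 0.09 on the log2 scale (adjusted p = 0.0147) and HOXA11 fell by 0.39 ± 0.08 (adjusted p = 0.0134).

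**Figure D2:**
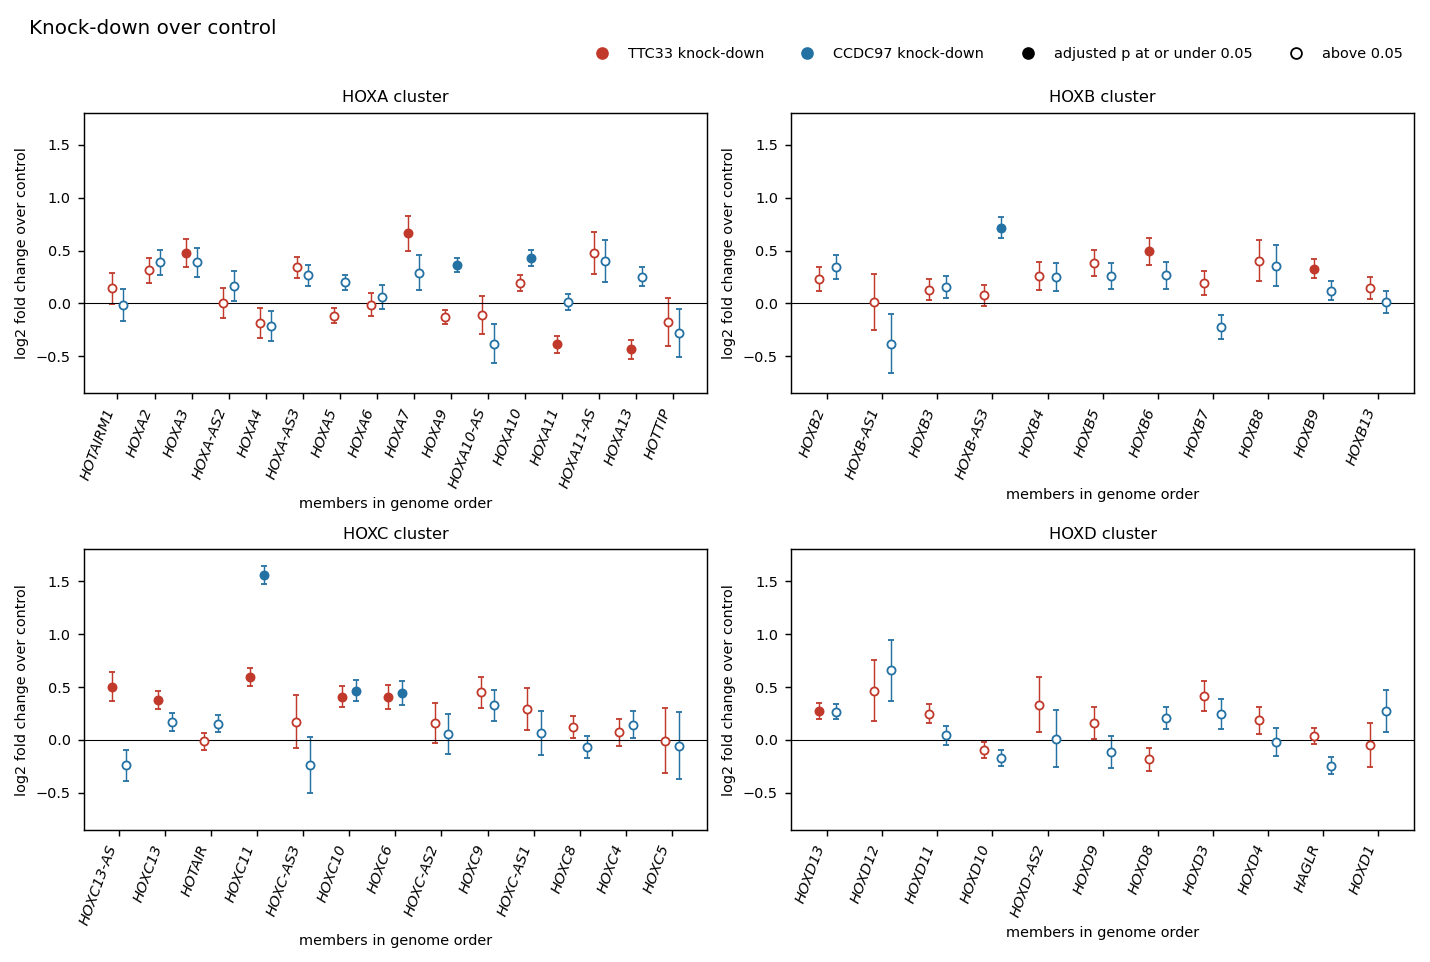
Log2 fold change over control of 51 members tested, in genome order, for TTC33 knock-down and CCDC97 knock-down cells, with bars of 1 SE and filled points where the adjusted p was at or under 0.05. HOXC11 stands at 0.59 in TTC33 and 1.56 in CCDC97 knock-down cells, and the filled points below 0 are HOXA11 and HOXA13 in TTC33 knock-down cells.

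Among the 40 members not called, log2 fold changes ran from -0.19 to 0.48. HOXA-AS3 (0.34 ± 0.10, adjusted p = 0.0526), HOXB5 (0.38 ± 0.12, adjusted p = 0.0647) and HOXC9 (0.45 ± 0.15, adjusted p = 0.068) were nearest to the threshold. Counting by overlap alone, 20 members had all 3 TTC33 knock-down libraries above all 3 controls and 4 had all 3 below, which is 46.2% of the 52, against 36.8% of all genes tested. The number of calls depended on single libraries. Leaving out control replicate 1, control replicate 2 or TTC33 knock-down replicate 2 left 1 call, HOXC11, leaving out TTC33 knock-down replicate 3 left 2, control replicate 3 left 3 and CCDC97 knock-down replicate 3 left 6, while 24 were called without TTC33 knock-down replicate 1. Calls over all genes tested moved in the same way, from 2.96% without control replicate 1 to 34.9% without TTC33 knock-down replicate 1.

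CCDC97 knock-down went with higher counts of 6 members, 3 of them in HOXC. These 6 were 11.5% of the 52 tested, and no member was called lower. Over all genes tested 4.56% were called, 2.07% higher and 2.49% lower. The members were HOXC11, HOXC10 and HOXC6, HOXA9 and HOXA10, and the noncoding HOXB-AS3. In HOXD no member of 11 was called by edgeR, 4 had an unadjusted p under 0.05, and DESeq2 called 1.

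HOXC11 had 24.3, 23.2 and 23.1 CPM in CCDC97 knock-down libraries, against 7.71, 7.95 and 8.31 CPM in control libraries. The groups lay far apart, at a fold of 2.95 (log2 1.56 ± 0.08, adjusted p = 5.16e-06), and of the members this was the largest change in either knock-down. Among the 52 members HOXC11 ranked 25 by level per length in CCDC97 knock-down cells, against 40 in control cells. HOTAIR starts inside the HOXC11 gene on the other strand. It had 29.3, 26.3 and 28.5 CPM in CCDC97 knock-down libraries, against 24.9, 24.5 and 26.0 CPM in control libraries. The HOTAIR difference was 0.15 ± 0.08 on the log2 scale and did not pass (adjusted p = 0.301). The spans of the genes overlap by 1831 bases and share 0 exon bases.

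On the other side of HOXC11, HOXC10 had 19.6, 18.6 and 19.7 CPM in CCDC97 knock-down libraries, against 14.0, 14.0 and 13.9 CPM in control libraries (log2 0.46 ± 0.10, adjusted p = 0.0275). HOXC6 had 54.9, 45.6 and 44.1 CPM in CCDC97 knock-down libraries, against 34.9, 36.1 and 35.2 CPM in control libraries (log2 0.45 ± 0.11, adjusted p = 0.0488). Both genes were thus higher in every knock-down library, with changes well under that of HOXC11. HOXC12, the next gene towards HOXC13, stayed at 4 counts or fewer in every library.

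HOXB-AS3, which runs antisense across HOXB5 and HOXB6, had 21.5, 21.5 and 18.3 CPM in CCDC97 knock-down libraries, against 11.4, 13.1 and 12.9 CPM in control libraries. All knock-down values were above all control values, by a log2 fold change of 0.72 ± 0.10 (adjusted p = 0.00334). HOXB5 and HOXB6 on the other strand differed by 0.26 ± 0.12 (adjusted p = 0.266) and 0.26 ± 0.13 (adjusted p = 0.273), which did not pass. HOXA9, a regulator of blood stem cells that is overexpressed in many leukaemias, had 94.9, 92.3 and 99.3 CPM in CCDC97 knock-down libraries, against 73.2, 77.1 and 72.5 CPM in control libraries. HOXA10, known for its role in the uterus, had 126, 148 and 139 CPM in CCDC97 knock-down libraries, against 102, 104 and 101 CPM in control libraries. Neither gene's groups overlapped, and the log2 fold changes were 0.36 ± 0.07 for HOXA9 (adjusted p = 0.0139) and 0.43 ± 0.07 for HOXA10 (adjusted p = 0.00955).

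**Figure D3:**
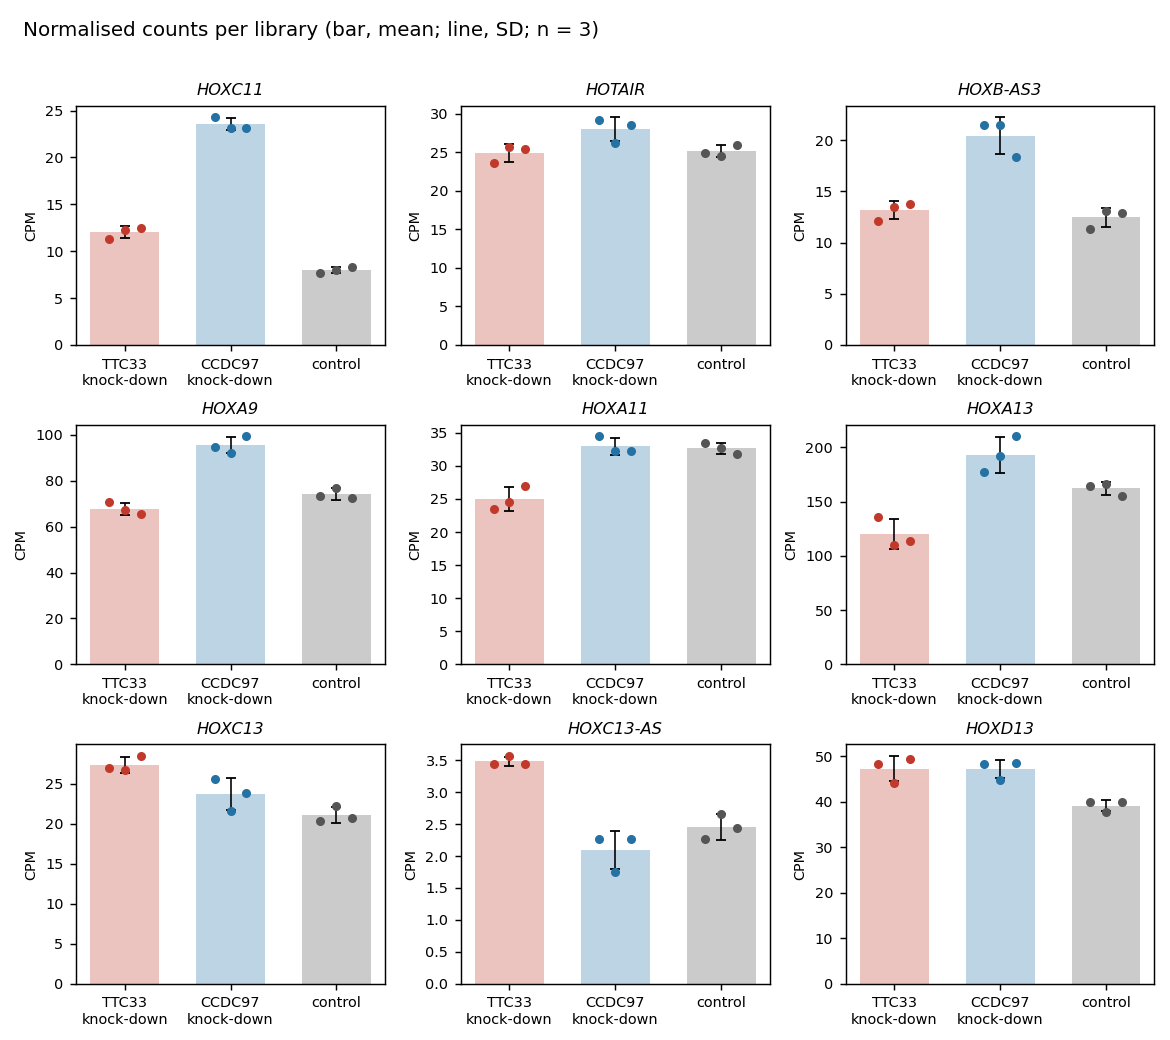
CPM of 9 members in each library of TTC33 knock-down, CCDC97 knock-down and control cells, with bars at the mean and lines of 1 SD (n = 3). HOXC11 steps up in both knock-downs while HOTAIR on the other strand stays between 23.6 and 29.3, and HOXA13 lies below controls in TTC33 and above them in CCDC97 knock-down cells.

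Among the 46 members not called, log2 fold changes ran from -0.38 to 0.66, the highest being that of HOXD12, one of the lowest members by level. By overlap alone, 21 members had all 3 CCDC97 knock-down libraries above the controls and 4 had all below, 48.1% of the 52, against 29.9% of all genes tested. Leaving out any 1 control library left 2 calls, HOXC11 and HOXB-AS3, leaving out CCDC97 knock-down replicate 2 or 3 left 3, and 13 were called without TTC33 knock-down replicate 1. Over all genes tested, 1.09% to 1.29% were called without a control library and 10.6% without TTC33 knock-down replicate 1.

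The knock-downs share their controls, so they were also set directly against each other. Here 11 of the 52 members were called, 3 higher and 8 lower in TTC33 than in CCDC97 knock-down cells, against 21.5% of all genes tested (11.3% higher, 10.2% lower). In HOXA 5 of 17 members were called, all lower: HOXA5, HOXA9, HOXA10, HOXA11 and HOXA13. By overlap, 6 members lay wholly above and 9 wholly below, 28.8% of the 52, against 30.4% of all genes tested.

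HOXC11 was lower in TTC33 than in CCDC97 knock-down cells by a log2 fold change of -0.97 ± 0.08 (adjusted p = 4.5e-05), although it was above control in both. HOXA13 had 136, 110.4 and 114 CPM in TTC33 knock-down libraries, against 177, 192 and 210.0 CPM in CCDC97 knock-down libraries, a log2 fold change of -0.69 ± 0.09 (adjusted p = 0.000905). HOXA9 had 70.7, 67.3 and 65.6 CPM in TTC33 knock-down libraries, against 94.9, 92.3 and 99.3 CPM in CCDC97 knock-down libraries (log2 -0.49 ± 0.07, adjusted p = 0.000997). Controls lay between the knock-downs for both genes. HOXA11 had 23.4, 24.5 and 26.97 CPM in TTC33 knock-down libraries, against 34.5, 32.2 and 32.2 CPM in CCDC97 knock-down libraries, which were at the control level (log2 -0.40 ± 0.08, adjusted p = 0.00729).

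HOXA5, needed for lung development in mouse, had 44.2, 46.5 and 47.8 CPM in TTC33 knock-down libraries, against 57.2, 57.4 and 57.6 CPM in CCDC97 knock-down libraries (log2 -0.31 ± 0.07, adjusted p = 0.0111). HOXD8 had 9.41, 7.87 and 8.80 CPM in TTC33 knock-down libraries, against 11.2, 10.8 and 12.3 CPM in CCDC97 knock-down libraries (log2 -0.39 ± 0.11, adjusted p = 0.0249). Neither gene passed against control in either knock-down. HOXA10 differed by -0.24 ± 0.07 (adjusted p = 0.0427) and HOXB-AS3 by -0.64 ± 0.10 (adjusted p = 0.00236). In TTC33 knock-down libraries HOXB-AS3 had 12.1, 13.5 and 13.8 CPM, which overlapped the control values.

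The members that were higher in TTC33 than in CCDC97 knock-down cells were HOXC13-AS, HOXB7 and HAGLR. HOXC13-AS had 3.44, 3.57 and 3.44 CPM in TTC33 knock-down libraries, against 2.26, 1.75 and 2.27 CPM in CCDC97 knock-down libraries (log2 0.74 ± 0.14, adjusted p = 0.00612). HOXB7 had 16.0, 19.3 and 21.2 CPM in TTC33 knock-down libraries, against 15.9, 13.3 and 13.1 CPM in CCDC97 knock-down libraries (log2 0.42 ± 0.12, adjusted p = 0.0291). HAGLR, a noncoding transcript at the low-numbered end of HOXD, had 32.1, 32.7 and 35.5 CPM in TTC33 knock-down libraries, against 28.3, 26.7 and 27.5 CPM in CCDC97 knock-down libraries (log2 0.28 ± 0.08, adjusted p = 0.0275). The groups did not overlap in any of the 3, and none of the 3 differed from control in CCDC97 knock-down cells beyond the threshold. Without CCDC97 knock-down replicate 1, 17 members were called between the knock-downs, and 7 were called without either of the other CCDC97 knock-down libraries or without TTC33 knock-down replicate 2 or 3. Over all genes tested, 32.9% were called without CCDC97 knock-down replicate 1 and 8.17% to 9.74% without any of those 4 libraries.

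The 4 clusters are set side by side by their medians, and differences between clusters were not tested. In TTC33 knock-down against control cells the median log2 fold change was 0.005 in HOXA, 0.23 in HOXB, 0.29 in HOXC and 0.18 in HOXD, beside 0.0045 over all genes tested. All 11 HOXB members tested had a fold change above 0, as did 11 of 13 in HOXC, 9 of 17 in HOXA and 8 of 11 in HOXD. In CCDC97 knock-down against control cells the medians were 0.25 in HOXA, 0.25 in HOXB, 0.14 in HOXC and 0.04 in HOXD, beside 0.0008 over all genes tested. Between the knock-downs the median of HOXA was -0.07, and those of HOXB, HOXC and HOXD were 0.12, 0.10 and 0.17.

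Summed over its members, HOXA had 514, 521 and 539 CPM in TTC33 knock-down libraries, 650.1, 654 and 677 CPM in CCDC97 knock-down libraries, and 549, 556 and 528 CPM in control libraries. The CCDC97 knock-down sums lay above all others. Much of each sum came from HOXA13, HOXA10 and HOXA9. They averaged 193, 137.8 and 95.5 CPM in CCDC97 knock-down cells, against 162.1, 102.2 and 74.3 CPM in control cells. In that comparison 2 of the 17 HOXA members were called, and HOXA13 was not. HOXB had 331, 399 and 428 CPM in TTC33 knock-down libraries, 395, 331 and 361 CPM in CCDC97 knock-down libraries, and 311, 323 and 315 CPM in control libraries. HOXC had 226, 265 and 285 CPM in TTC33 knock-down libraries, 297, 247 and 258 CPM in CCDC97 knock-down libraries, and 213, 220.0 and 217 CPM in control libraries. For HOXB and HOXC every knock-down library exceeded every control library, and the knock-downs overlapped. HOXD had 208, 215 and 221 CPM in TTC33 knock-down libraries, 208, 187 and 206 CPM in CCDC97 knock-down libraries, and 206, 204 and 197 CPM in control libraries, so the CCDC97 knock-down and control sums overlapped.

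**Figure D4:**
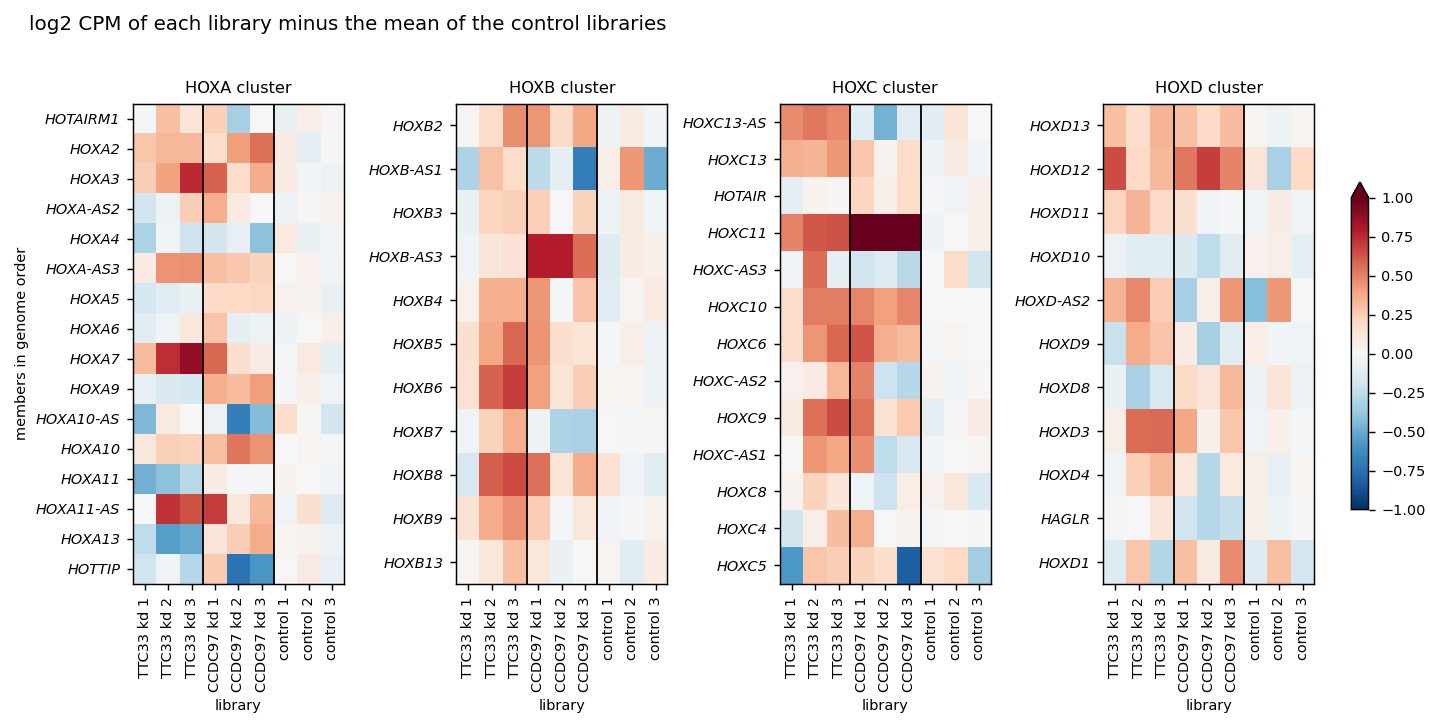
Difference of each library's log2 CPM from the mean of the 3 control libraries for 51 members, by cluster and in genome order, with colours that end at -1 and 1. Columns run from TTC33 knock-down through CCDC97 knock-down to control libraries. TTC33 knock-down replicate 1 is paler than replicates 2 and 3 in HOXB and HOXC, and HOXC11 passes the end of the scale in all 3 CCDC97 knock-down libraries.

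Libraries of a group did not move the members equally. The median difference of the members from the controls was -0.002, 0.26 and 0.30 in TTC33 knock-down replicates 1, 2 and 3, and 0.28, 0.06 and 0.18 in CCDC97 knock-down replicates 1, 2 and 3, on the log2 scale. The members' transcripts are rich in G and C, with a median of 54.8% against 48.2% over genes in the fit. After removal of each library's trend with GC content and length, those medians were 0.03, 0.10 and 0.11 in TTC33 knock-down replicates, and 0.23, 0.19 and 0.27 in CCDC97 knock-down replicates. All members called without the correction were also called with it in the same comparison, and calls over all genes rose as well. With it, 17 of 52 members (32.7%) were called for TTC33 knock-down against control, against 27.5% of all genes. For CCDC97 knock-down against control 25 members (48.1%) were called, against 19.6% of all genes. Between the knock-downs 14 members (26.9%) were called, against 28.5% of all genes. Over the cluster, the corrected median of TTC33 knock-down against control was -0.10 in HOXA, 0.15 in HOXB, 0.14 in HOXC and 0.02 in HOXD. That of CCDC97 knock-down against control was 0.24 in HOXA, 0.29 in HOXB, 0.14 in HOXC and 0.17 in HOXD. Between the knock-downs the corrected medians were -0.17 in HOXA, -0.11 in HOXB, -0.08 in HOXC and -0.04 in HOXD, so those of HOXB, HOXC and HOXD changed sign with the correction. The part of GC content in the uncorrected medians was not tested further.

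Paralogs with the same number were called in opposite directions in groups 11 and 13 and in the same direction in group 6. In TTC33 knock-down against control cells group 11 split into HOXA11, which fell by 0.39, HOXC11, which rose by 0.59, and HOXD11, at 0.25 ± 0.09 (adjusted p = 0.0888). Group 13 split into HOXA13, which fell by 0.43, HOXC13 and HOXD13, which rose by 0.38 and 0.27, and HOXB13, at 0.15 ± 0.10 (adjusted p = 0.358). In CCDC97 knock-down against control cells, HOXA11 had a log2 fold change of 0.01 ± 0.08 (adjusted p = 0.949) beside the rise of 1.56 in HOXC11. In group 6, HOXB6 and HOXC6 both rose in TTC33 knock-down cells, by 0.49 and 0.41, while HOXA6 had -0.01. Group 10 held the only paralogs that passed together in CCDC97 knock-down cells, HOXA10 and HOXC10, while HOXD10 had -0.17 ± 0.07 (adjusted p = 0.217). Groups 2, 4, 5, 8 and 12 held no member called against control in either knock-down. In all, 3 of the 52 members tested were called against control in both knock-downs, HOXC6, HOXC10 and HOXC11, beside 227 of all 18299 genes tested. The comparisons share their controls, so calls in both are not independent. Both knock-downs expressed a microRNA and controls expressed none. A rise common to both thus cannot be told apart from an effect of microRNA expression.

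Calls are given apart for noncoding members and HOX genes, with no test of the difference. Against control, 1 of 15 noncoding members (6.67%) was called in TTC33 knock-down cells (HOXC13-AS) and 1 (6.67%) in CCDC97 knock-down cells (HOXB-AS3). Of the 37 HOX genes, 11 (29.7%) and 5 (13.5%) were called, beside 11.9% and 4.56% of all genes tested. Between the knock-downs, 3 of 15 noncoding members (20%) and 8 of 37 HOX genes (21.6%) were called, against 21.5% of all genes tested. Some noncoding members had low counts, such as HOXC-AS3 (0.665 CPM in controls), which limits calls. There are 30 pairs of a HOX gene and a noncoding member that overlap on opposite strands with both tested. In TTC33 knock-down against control cells, both partners were called in 1 pair, HOXC13 and HOXC13-AS, which rose together and share 172 exon bases. One partner was called in 10 of the 30 pairs, and no pair was called in opposite directions. HOXA11 fell in TTC33 knock-down cells while HOXA11-AS had 8.10, 13.4 and 12.6 CPM in TTC33 knock-down libraries, against 7.90, 9.09 and 7.42 CPM in control libraries, which did not pass (log2 0.48 ± 0.20, adjusted p = 0.126). HOTTIP, which lies beyond HOXA13 on the other strand and has been described to bind the MLL partner WDR5, differed by -0.18 ± 0.22 (adjusted p = 0.626) in TTC33 knock-down cells beside the fall of HOXA13. HOXA10-AS differed by -0.38 ± 0.18 (adjusted p = 0.274) in CCDC97 knock-down cells beside the rises of HOXA9 and HOXA10. HOTAIRM1 differed by 0.14 ± 0.15 in TTC33 and by -0.02 ± 0.15 in CCDC97 knock-down cells, and neither passed. The deposited counts keep the strands apart as far as the values show: of 696 genes whose every exon base is shared with exons on the other strand, 34.1% had 10 or more counts in all, beside 35.3% of genes that share none and 0.728% of those shared wholly on the same strand.

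Regulators and partners of HOX proteins are given here by list. For comparison, 11.9% of all genes tested were called against control in TTC33 and 4.56% in CCDC97 knock-down cells. The lists were not tested against these shares. Of the TALE cofactors, which bind DNA with HOX proteins, 1 of 9 was called in TTC33 knock-down cells and 0 of 9 in CCDC97 knock-down cells by edgeR, where 1 had an unadjusted p under 0.05 and DESeq2 called 1. MEIS3 averaged 17.2 CPM in TTC33 knock-down and 9.65 CPM in control cells (log2 0.83, adjusted p = 0.0279). Of the Polycomb complex 2 genes, which methylate histone H3 at lysine 27, JARID2 rose (log2 0.36, adjusted p = 0.00986) and RBBP7 fell by 0.25 (adjusted p = 0.0211) in TTC33 knock-down cells, out of 12. Of 21 Polycomb complex 1 genes, PHC1 fell by 0.35 (adjusted p = 0.0321). In CCDC97 knock-down cells edgeR called 0 of these 33 genes, while 1 of the complex 2 and 2 of the complex 1 genes had an unadjusted p under 0.05 and DESeq2 called 0. Of 18 MLL and COMPASS genes with the demethylases that oppose Polycomb, NCOA6 (log2 0.38, adjusted p = 0.0163) and KDM6B (log2 0.71, adjusted p = 0.0313) rose in TTC33 knock-down cells, and none was called in CCDC97 knock-down cells, where 0 had an unadjusted p under 0.05 and DESeq2 called 0. Of 11 genes tested of the super elongation complex and DOT1L, edgeR called 0 in either knock-down, with 5 at an unadjusted p under 0.05 in TTC33 and 1 in CCDC97 knock-down cells, and DESeq2 called 1 and 0.

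Retinoic acid switches on low-numbered HOX genes in embryos, and 18 genes of its pathway were tested. In TTC33 knock-down cells 2 were called higher and 1 lower, beside 11.9% of all genes tested. In CCDC97 knock-down cells 3 were called higher and 1 lower, beside 4.56% of all genes tested. RARB, a retinoic acid receptor that is itself induced by the ligand, averaged 16.9 CPM in TTC33 knock-down, 21.7 CPM in CCDC97 knock-down and 12.4 CPM in control cells, and passed in both (log2 0.45, adjusted p = 0.0323, and log2 0.81, adjusted p = 0.00363). ALDH1A1, which makes retinoic acid, passed in both but averaged 0.376 CPM in TTC33 knock-down, 0.671 CPM in CCDC97 knock-down and 0.106 CPM in control cells. ALDH1A3 fell by 0.59 in TTC33 knock-down cells (adjusted p = 0.0278), and in CCDC97 knock-down cells ALDH1A2 rose (log2 0.30, adjusted p = 0.0322) and RXRA fell by 0.43 (adjusted p = 0.0331). Of 7 upstream axial regulators tested, 2 were called higher in TTC33 knock-down cells, among them NR6A1 (log2 0.53, adjusted p = 0.00657). GDF11, which activates high-numbered HOX genes in the mouse tail, fell by 0.36 in CCDC97 knock-down cells (adjusted p = 0.029). Of 13 homeobox genes of the same class outside the clusters, edgeR called 0 in either knock-down, with 2 and 0 at an unadjusted p under 0.05 and 0 called by DESeq2.

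Genes that flank the clusters were called in both directions. The shares over all genes tested were 11.9% in TTC33 and 4.56% in CCDC97 knock-down cells, and the flanking lists were not tested against them. Around HOXA, SNX10 fell by 0.90 in TTC33 knock-down cells (adjusted p = 0.0388), out of 8 tested. Around HOXB, SNX11 rose (log2 0.32, adjusted p = 0.0451), out of 10. Around HOXC, CALCOCO1 rose in TTC33 knock-down cells (log2 0.46, adjusted p = 0.0056), and HNRNPA1 (log2 0.35, adjusted p = 0.0269) and ATP5MC2 (log2 0.33, adjusted p = 0.0463) rose in CCDC97 knock-down cells, out of 8. Around HOXD, HNRNPA3 fell by 0.72 (adjusted p = 0.00116), ATP5MC3 by 0.34 and GPR155 by 0.54 in TTC33 knock-down cells, out of 10. Of the 6 microRNA genes inside the clusters, 3 were tested and edgeR called 0 against control, with 0 in TTC33 and 1 in CCDC97 knock-down cells at an unadjusted p under 0.05 and 0 by DESeq2.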

How the data were processed

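RNA of 9 libraries in 3 groups of 3 was analysed. The submitters' processing notes name Trimmomatic 0.39, HISAT2, HTSeq 2.0.1 and the build GRCh38. For the annotation release, the strand setting and the HISAT2 version, nothing is given in the sources used here. The authors deposited raw gene counts without scaling. Each sample has a table marked R12, used throughout, and a smaller one marked U (6.55% to 11.9% of their sum), added in an alternative. Rows that name no gene held 33.4% to 57.9% of the R12 counts and were left out.

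Genes were kept by edgeR's filterByExpr (18299 of 60664) and scaled with TMM factors. edgeR 4.0.16 (R 4.3.3) fitted all 9 libraries by quasi-likelihood, with 1 coefficient for each group, with 6 residual degrees of freedom. Two-sided p-values were adjusted by Benjamini-Hochberg across every gene tested (threshold 0.05). The common biological coefficient of variation was 0.109. The SE is the log2 fold change over the root of the F statistic. Names, exon lengths, strands and GC content came from GENCODE 29, chosen here. Promoters came from RefSeq. The fit was tested on simulated data.

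All members called in any contrast were named, the member with the highest level per length in each cluster, and at most 3 genes per contrast of each companion list. Alternatives were DESeq2 1.42.0, other factors and filters, 2 groups alone, a replicate block, a correction for GC content and length (mgcv 1.9.3; 98.6% of genes tested had values), R12 plus U, and leaving out each library. Some genes that these rules would name or plot are not reported here. Members and lists were chosen with earlier results of these data known. Intervals and SEs cover counting error and the spread between libraries. Replicates differed beyond sampling noise, so none were merged.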

Additional observations from a re-analysis of the deposited data

Results flagged for a closer look

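For 8 of the 52 members (15.4%) the fold changes against control had opposite signs in the knock-downs and the difference between the knock-downs itself passed (edgeR's quasi-likelihood test with Benjamini-Hochberg adjustment). The same held for 16.5% of all genes tested, so the count is near the background. For HOXA11 in CCDC97 knock-down cells (0.01 ± 0.08) and HAGLR in TTC33 knock-down cells (0.04 ± 0.08) the fold change against control was within its SE of 0. The log2 fold changes of TTC33 over CCDC97 knock-down were -0.314 for HOXA5, -0.493 for HOXA9, -0.401 for HOXA11 and -0.685 for HOXA13, 4 genes of 1 cluster. HOXD8 had -0.394, and HOXB7, HOXC13-AS and HAGLR had 0.416, 0.741 and 0.28. Of these, HOXA11 and HOXA13 were called lower and HOXC13-AS higher in TTC33 knock-down than in control cells, HOXA9 was called higher in CCDC97 knock-down than in control cells, and HOXA5, HOXD8, HOXB7 and HAGLR passed against control in neither.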

How the results depend on the processing

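HOXC11 was called in every alternative run for both knock-downs, and HOXB-AS3 in every one run for CCDC97 knock-down, and no value of a called member changed sign. With the replicate block, 1 member (1.92%) was called for TTC33 knock-down against control, against 4.13% of all genes. For CCDC97 knock-down against control 3 members (5.77%) were called, against 1.31% of all genes. Between the knock-downs 7 (13.5%) were called, against 10.1% of all genes. The labels do not say whether replicate numbers pair the libraries. Deviations from the group means correlated at -0.504 to 0.0936 between same-numbered libraries and at -0.274 to 0.37 between the others. With means of 3 libraries these values cannot decide whether the numbers mark a pairing. With the GC content and length correction 25 members (48.1%) were called for CCDC97 knock-down against control, against 19.6% of all genes. With the replicate block added 22 (42.3%) were called, against 17.6% of all genes. Fitting only the 2 groups left 6 (11.5%) between the knock-downs, against 8.4% of all genes. Leaving out a library gave 1 to 24 calls for TTC33 knock-down against control, 2 to 13 for CCDC97 knock-down against control and 7 to 17 between the knock-downs. In the same order, these fits called 2.96% to 34.9%, 1.09% to 10.6% and 8.17% to 41.6% of all genes. The cluster medians then ran, for TTC33 knock-down against control, from -0.0853 to 0.0967 in HOXA and 0.0956 to 0.3253 in HOXB. For CCDC97 knock-down against control they ran from 0.2005 to 0.2687 in HOXA and 0.0215 to 0.2406 in HOXD. Between the knock-downs they ran from -0.1012 to 0.0379 in HOXA.

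With the GC content and length correction, without and with the replicate block, the cluster medians moved as follows. For TTC33 knock-down against control they were -0.0991 and -0.1009 in HOXA and 0.0236 and 0.0223 in HOXD. For CCDC97 knock-down against control they were 0.1689 and 0.1686 in HOXD. Between the knock-downs they were -0.1697 and -0.1633 in HOXA, -0.1063 and -0.1099 in HOXB, and -0.0429 and -0.0448 in HOXD. The cause was not tested. Depth limits the members under about 1 CPM, such as HOXC-AS3 and HOXD12, and HOXD12 and HOXC5 had the widest SEs for TTC33 knock-down against control.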
